A study of Mus musculus with 12 samples.

Results

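For oligodendrocyte precursor cells and their growth factor, 9 genes were followed: Pdgfra, Pdgfa, Cspg4, Olig1, Olig2, Sox10, Gpr17, Vcan and Lhfpl3. Pdgfa encodes the ligand of the cells' growth factor receptor, and the others are genes that these cells express. Not all are particular to the precursors: Olig1, Olig2 and Sox10 are factors of the whole lineage, and pericytes also carry the product of Cspg4. The genes were picked by name, and each was read by the transcript clusters that the array's annotation pairs with that gene alone. A transcript cluster is a set of probes along 1 transcript. Each gene had 1 such cluster, so that the genes made up 9 of the 23410 clusters with a gene that were tested, out of 35556 on the array. The hippocampi came from 6 MSN mice and 6 ICR mice, all adult males that had been housed singly in the same room, with 1 Affymetrix Mouse Gene 1.0 ST array for each mouse. MSN (Madison) is an inbred strain with a manic phenotype, descended from ICR mice bred for wheel running and then for maternal defense. ICR (hsd:ICR) is its outbred ancestral stock, labelled as behaviorally normal. No drug treatment or engineered allele is described for these mice. Their locomotor activity was observed on the day before tissue collection, and all were anesthetized with isoflurane before decapitation. The hippocampi were macrodissected whole. Differences in the number of cells of a type and in RNA per cell therefore cannot be told apart.

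Oligodendrocyte precursor cells divide in the adult brain and give rise to the oligodendrocytes that myelinate axons. They are found by the PDGF receptor alpha and by the NG2 proteoglycan on their surface. PDGF-A from neurons and astrocytes drives their division and survival through that receptor, and the transcription factors Olig1, Olig2 and Sox10 set and hold the fate of the lineage.

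Of the 9 genes, Pdgfra passed the test, with a higher intensity in MSN hippocampus, and the other 8 did not pass. The share called among all clusters tested was 0.777%, that is 182 of 23410, with 71 (0.303%) higher and 111 (0.474%) lower in MSN mice. The values are linear PLIER intensities, and the test was limma on log2(intensity + 16) with a Benjamini-Hochberg adjusted P-value under 0.05 over all 23410 clusters. Log2 fold changes are MSN over ICR on that scale, and the added 16 makes the change of a dim gene look smaller. Pdgfra separated the strains completely and the other 8 genes overlapped, against 1.44% of all clusters tested without overlap, 0.568% with MSN mice higher and 0.867% with MSN mice lower. The log2 fold change was above 0 in 8 of the 9 genes, with a median of 0.08, while 45.5% of all clusters were above 0 and their median was -0.01. That background rose to 55.4% with quantile normalization and to 59.5% with the arrays scaled to the same median, and 8 of the 9 genes were above 0 under both. The median of the 9 was 0.03 without ICR replicate 4 and 0.05 without ICR replicate 3.

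The stretches around the transcription start are shown for Pdgfra and Lhfpl3, the genes at the top and at the bottom of the range of log2 fold changes. Each runs 5′ to 3′ over 300 bases, from 250 before the start to 50 after it, on the strand of the gene, from RefSeq on GRCm38.p6. Capitals mark every match to CANNTG, the E-box that basic helix-loop-helix factors such as Olig1 and Olig2 bind, which reads the same way on both strands.
Pdgfra (chr5:75152001-75152300, plus strand): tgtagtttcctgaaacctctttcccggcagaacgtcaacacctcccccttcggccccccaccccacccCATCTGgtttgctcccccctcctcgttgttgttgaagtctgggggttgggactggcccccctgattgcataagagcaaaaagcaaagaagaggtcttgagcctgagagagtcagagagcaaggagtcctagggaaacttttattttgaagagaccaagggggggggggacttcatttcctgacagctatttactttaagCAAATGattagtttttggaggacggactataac
Lhfpl3 (chr5:22745804-22746103, plus strand): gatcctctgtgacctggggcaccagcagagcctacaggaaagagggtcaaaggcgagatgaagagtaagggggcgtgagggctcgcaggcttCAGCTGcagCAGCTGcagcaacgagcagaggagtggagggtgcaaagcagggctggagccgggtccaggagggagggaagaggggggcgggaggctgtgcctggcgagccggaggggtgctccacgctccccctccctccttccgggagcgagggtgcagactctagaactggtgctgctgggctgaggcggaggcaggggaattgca
Counted from 1 at the 5′ end, the E-boxes of Pdgfra began at positions 69 and 268, and those of Lhfpl3 at positions 93 and 102. The first of Pdgfra was CAGATG read on the other strand, and both of Lhfpl3 were CAGCTG. Of 32851 promoter windows of this length, 72.3% held CANNTG, 17.2% held CAGATG and 16.3% held CAGCTG on either strand. CAGATG and CAGCTG are both also cases of CANNTG. The table held 7 windows for 6 of the 9 genes, and 3 of these windows had an E-box: those of Pdgfra, Lhfpl3 and Vcan. The SOX motif ACAAAG was in none of the 7, against 18.7% of all windows, and ACAAT was in 3, against 31.0%. Olig1, Sox10 and Gpr17 had no entry. A match is a run of letters and was not measured here as a bound site.

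Pdgfra encodes the receptor tyrosine kinase that binds PDGF-A at the surface of the precursor cells. Its intensity ran from 1110 to 1227 in MSN mice with a median of 1130, against 870 to 1013 with a median of 977 in ICR mice. The lowest MSN mouse thus lay above the highest ICR mouse. The mean was 1147 ± 45.0 (SD, n = 6) in MSN mice and 958 ± 60.0 (SD, n = 6) in ICR mice, a 1.20-fold difference with a 95% interval of 1.12 to 1.28. The log2 fold change was 0.26 (standard error 0.0447, adjusted P-value = 0.0184 from limma). In the two-sided exact permutation test of 6 against 6 mice the P-value was 0.00216, the smallest this design allows. Among all clusters tested, 61 had a lower P-value than Pdgfra. The study singled out this gene on the same arrays, so the call is not independent evidence. Pdgfra was not among the genes that the study measured again by RT-qPCR. The study also could not exclude that sequence changes at probe binding sites affected some genes, and this was not tested here.

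Pdgfa encodes the PDGF-A chain, the ligand. It read 1990 to 2171 with a median of 2097 in MSN mice, against 1945 to 2212 with a median of 2029 in ICR mice. The ICR values reached both below and above all MSN values. The log2 fold change was 0.03 (adjusted P-value = 0.822 from limma), with a 95% interval from -0.05 to 0.11 that left room for a change of at most 1.08-fold upward.

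Olig1, the first of a pair of neighboring helix-loop-helix genes on chromosome 16, read 1609 to 1902 with a median of 1743 in MSN mice, against 1553 to 1706 with a median of 1653 in ICR mice. Of the 6 MSN mice, 4 lay above the highest ICR mouse, and the lowest lay below the ICR median. The log2 fold change of Olig1 was 0.08 (95% interval -0.01 to 0.17, adjusted P-value = 0.434 from limma). Olig2, the factor without which the lineage does not form, read 841 to 1066 with a median of 986 in MSN mice, against 874 to 1085 with a median of 943 in ICR mice. The ranges of Olig2 were nearly the same, and its log2 fold change was 0.03 (95% interval -0.11 to 0.17, adjusted P-value = 0.904 from limma). Sox10, the factor that turns on myelin genes and is present throughout the lineage, read 769 to 863 with a median of 817 in MSN mice, against 759 to 838 with a median of 778 in ICR mice. Most MSN mice, 5 of 6, were above the ICR median of Sox10, but only 2 were above all ICR mice, and the log2 fold change was 0.04 (adjusted P-value = 0.710 from limma).

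Cspg4 encodes the NG2 proteoglycan, which pericytes also carry. It read 311 to 355 with a median of 326 in MSN mice, against 278 to 326 with a median of 315 in ICR mice. The upper part of the MSN range, 3 mice, was above all ICR mice, and the log2 fold change was 0.08 (95% interval -0.01 to 0.18, adjusted P-value = 0.468 from limma). Vcan encodes versican, a large chondroitin sulfate proteoglycan of the extracellular matrix. It read 589 to 708 with a median of 642 in MSN mice, against 549 to 645 with a median of 606 in ICR mice. Of the MSN mice 3 exceeded every ICR mouse, and the log2 fold change of Vcan was 0.09 (95% interval -0.02 to 0.20, adjusted P-value = 0.478 from limma).

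Gpr17, a G protein-coupled receptor of precursors that have begun to differentiate, varied most between mice. It read 494 to 643 with a median of 585 in MSN mice, against 424 to 637 with a median of 553 in ICR mice. The strains overlapped over much of their ranges, with 2 of 6 ICR mice below every MSN mouse. The SD on the log2 scale was 0.15 in MSN mice and 0.21 in ICR mice, and the log2 fold change of 0.10 had a 95% interval from -0.10 to 0.30 (adjusted P-value = 0.716 from limma). It was 0.03 without ICR replicate 4 and 0.15 without ICR replicate 2. Lhfpl3, a membrane protein of the LHFPL family that marks the precursors in brain, was the one member with a log2 fold change below 0. It read 688 to 726 with a median of 716 in MSN mice, against 712 to 812 with a median of 767 in ICR mice. Every MSN mouse was below the ICR median, although 4 of 6 lay within the ICR range. The log2 fold change was -0.09 (95% interval -0.17 to -0.01, unadjusted P-value = 0.0319 and adjusted P-value = 0.333 from limma), and the two-sided exact permutation test gave P-value = 0.0281. Pdgfra and Lhfpl3 were the 2 members at an unadjusted P-value under 0.05, where 12.7% of all clusters tested were found.

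**Figure D1:**
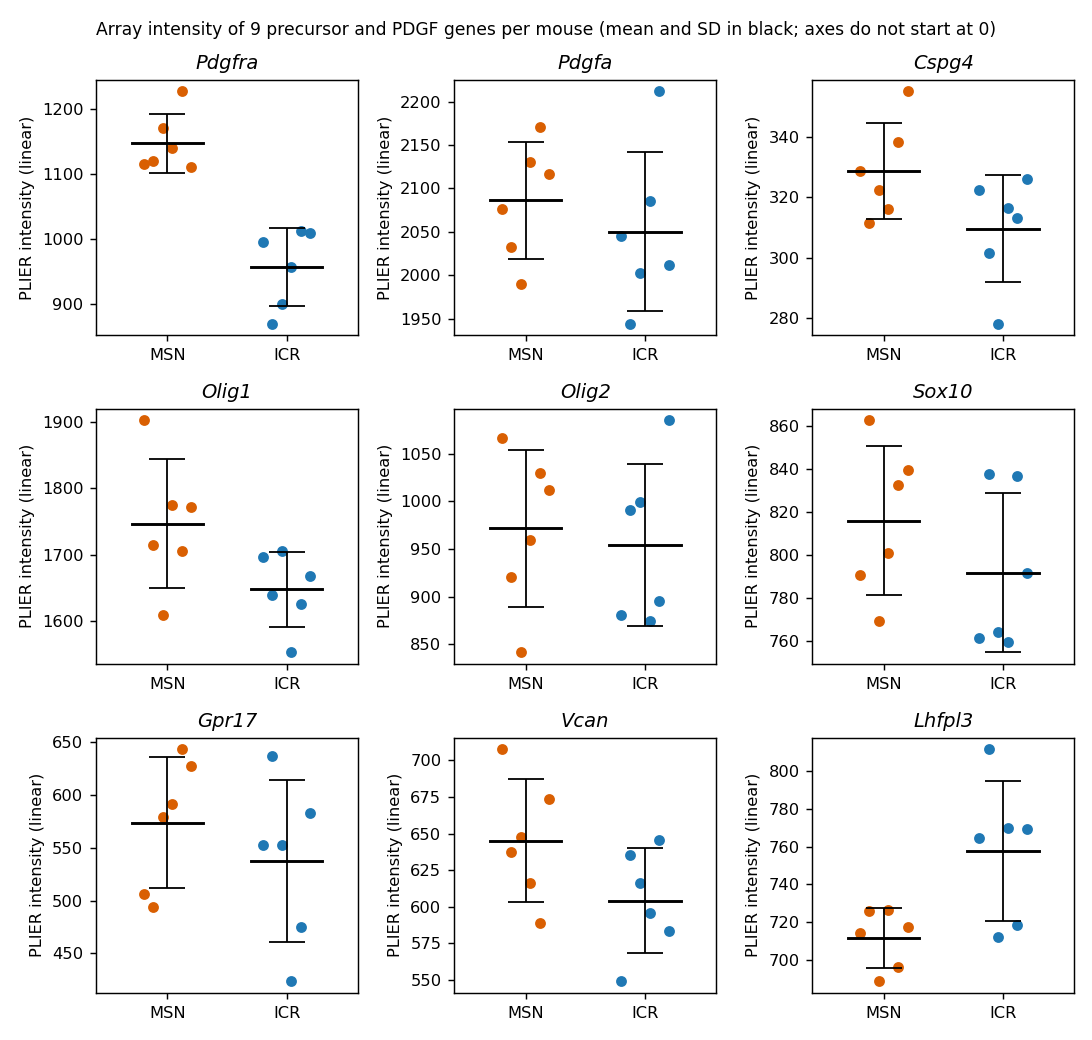
Array intensity of the 9 genes, with 1 point per mouse, MSN in orange and ICR in blue, and the mean and SD of 6 mice in black; the axes are linear, differ between genes and do not start at 0. In Pdgfra no MSN point reaches an ICR point, and in the other 8 genes the strains overlap.

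**Figure D2:**
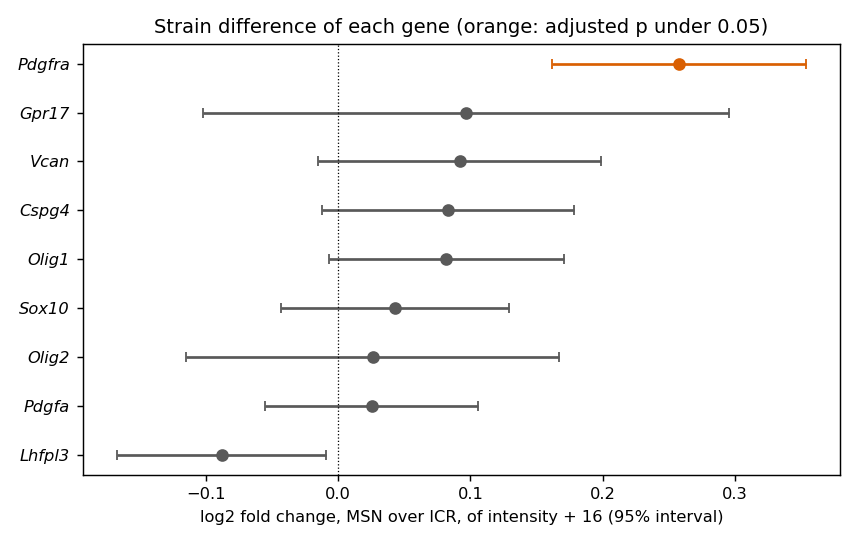
Log2 fold change of MSN over ICR for each gene, with its 95% interval from limma, ordered by size. Pdgfra, in orange, is the gene with an adjusted P-value under 0.05, and Lhfpl3 is the one below 0.

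Pdgfra was also read against each other gene on the same array, where a factor common to the whole array drops out but for the added 16. The log2 value of Pdgfra minus that of the other gene was higher in MSN mice by 0.16 to 0.35 on average, which restates the log2 fold changes above and adds no support to them. What the arrays add is the spread. Against 2 of the 8 genes, Pdgfa and Lhfpl3, every MSN array exceeded every ICR array. The difference from Pdgfa, receptor minus ligand, ran from -0.92 to -0.76 in MSN mice and from -1.15 to -0.98 in ICR mice. The difference from Lhfpl3 ran from 0.61 to 0.80 in MSN mice and from 0.10 to 0.49 in ICR mice. Against the other 6 genes the strains overlapped. Pdgfra alone already separated the strains, and the share of all clusters against which its difference does so was not computed. The separation is thus not shown to be particular to Pdgfa and Lhfpl3. These differences were not tested, since the 9 genes were chosen with earlier results of these arrays known. The 95% interval of Pdgfra, with its lower end at 0.16 on the log2 scale, lay above those of Pdgfa, Sox10 and Lhfpl3 and overlapped those of the other 5 genes.

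**Figure D3:**
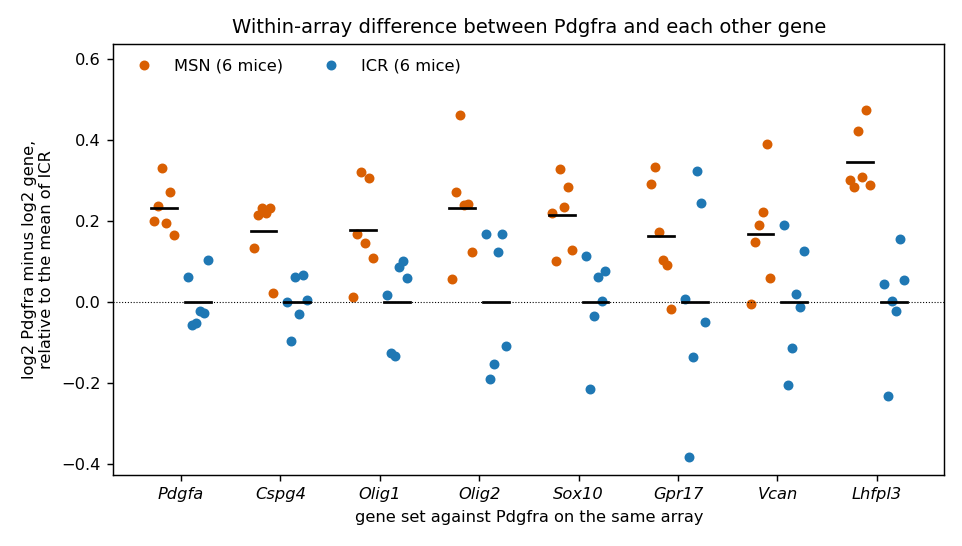
Log2 value of Pdgfra minus that of each other gene on the same array, shifted so that the ICR mean is 0, with 1 point per mouse, MSN in orange, ICR in blue and the means as black lines. The MSN points stand clear of the ICR points for Pdgfa and Lhfpl3 and overlap them for the other 6 genes.

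No pair of the 9 genes was shown to vary together between mice of the same strain. After the strain mean was taken off, none of the 36 pairs was correlated over the 12 mice at an adjusted P-value under 0.05 (lowest adjusted P-value = 0.953 by permutation of mice within strains, with 1 pair at an unadjusted P-value under 0.05). Pearson's r ran from -0.53 to 0.66 with a median of 0.10, and 21 pairs were positive. The highest was that of the neighbors Olig1 and Olig2, r = 0.66 (permutation P-value = 0.0271) and Spearman's rho = 0.51 (permutation P-value = 0.104), which was 0.82 within MSN mice and 0.44 within ICR mice. Without the 2 mice farthest from the median of Olig1, r was 0.37. Pdgfra was positive with Pdgfa (r = 0.57, permutation P-value = 0.0871; rho = 0.57, permutation P-value = 0.0764), where r was 0.31 without the 2 farthest mice. It was also positive with Cspg4 (r = 0.51, permutation P-value = 0.115; rho = 0.48, permutation P-value = 0.139), with the same r = 0.51 without those mice. With the other 6 genes it was negative, down to Vcan (r = -0.53, permutation P-value = 0.0849; rho = -0.51, permutation P-value = 0.115). The SD on the log2 scale was larger in the outbred ICR mice for 7 of the 9 genes, among them Pdgfra with 0.05 in MSN mice and 0.09 in ICR mice, and for 50.0% of all clusters tested.

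As a description, the genes whose deviations from the strain mean were most like those of Pdgfra over the 12 mice were Cntnap3 (r = 0.95), Chd5 (r = 0.94), Gramd2 (r = 0.92), Tppp (r = 0.90) and Cd44 (r = 0.90), out of 21788 other clusters with a single gene. None of these 5 passed the test between strains, and their log2 fold changes were all below 0, from -0.26 for Cntnap3 to -0.01 for Tppp. All 12 arrays entered each of these values, and no scan batch was given that could be taken out. Pdgfa ranked 911th and Cspg4 1217th in this order, and Vcan 19692nd.

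The PDGF family has further ligands and receptors, and Pdgfra was the 1 called gene of 7 measured. Pdgfb, the chain that endothelial cells use to recruit pericytes, came next with 552 to 678 in MSN mice, against 502 to 571 in ICR mice. Its ranges overlapped, and its log2 fold change of 0.15 did not pass (standard error 0.0514, adjusted P-value = 0.223 from limma). Pdgfrb, the receptor on pericytes, averaged 635 ± 28.8 in MSN mice and 624 ± 23.1 in ICR mice (SD, n = 6 each), and the log2 fold change was 0.02 (adjusted P-value = 0.838 from limma). The log2 fold changes of the ligand genes Pdgfc and Pdgfd were 0.03 and 0.02, and that of Pdgfrl, a receptor-like gene, was -0.01. The median of the 7 was 0.03.

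Downstream of the receptor, 0 of 13 measured signaling genes passed in limma, with 3 at an unadjusted P-value under 0.05 and a median log2 fold change of 0.00. Shc1, an adaptor that binds activated receptors, read 197 to 237 in MSN mice and 232 to 264 in ICR mice, and the log2 fold change was -0.16 (adjusted P-value = 0.126 from limma). Map2k1, a kinase of the cascade below the receptor, had a log2 fold change of -0.10, and Rasa1, a GTPase-activating protein, 0.11 (adjusted P-value = 0.282 and 0.316 from limma). Of 10 genes for other mitogens and their receptors, 0 passed in limma, with 2 at an unadjusted P-value under 0.05 and a median log2 fold change of 0.00. Erbb3, a neuregulin receptor, averaged 436 ± 27.5 in MSN mice and 391 ± 15.9 in ICR mice (log2 fold change 0.15, adjusted P-value = 0.152 from limma), while its ligand gene Nrg1 averaged 366 ± 20.0 in MSN mice and 400.4 ± 32.6 in ICR mice (SD, n = 6 each), with a log2 fold change of -0.12 (adjusted P-value = 0.362 from limma).

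Other markers of the precursor cells did not stand to 1 side. Of 13 measured genes outside the 9, 6 were above 0 and 7 below, 0 passed in limma and 2 had an unadjusted P-value under 0.05, with a median log2 fold change of -0.01. With quantile normalization and with scaling to the same median 7 and 8 of the 13 were above 0, so that the balance depended on the scaling. Neu4, a sialidase, read 398 to 481 in MSN mice and 361 to 416 in ICR mice, and the log2 fold change was 0.17 (standard error 0.0464, adjusted P-value = 0.117 from limma). For Cacng4, an auxiliary subunit of AMPA receptors, the log2 fold change was 0.08 (adjusted P-value = 0.344 from limma), and for Tnr, the matrix protein tenascin-R, it was 0.11 (adjusted P-value = 0.436 from limma). Among 11 transcription factors and inhibitors of the lineage 5 were above 0 and 0 passed, with 1 at an unadjusted P-value under 0.05: Id4, an inhibitor of helix-loop-helix factors (log2 fold change -0.14, adjusted P-value = 0.282 from limma). Of 8 genes for proteoglycans, link proteins and tenascin-R, relatives and partners of Vcan and Cspg4, 3 were above 0. Among these 8, Bcan and Tnr were also counted in the 13 other markers. Of the 8, 0 passed in limma and 1 had an unadjusted P-value under 0.05. That one was Hapln4, a link protein of perineuronal nets, with 1202 to 1534 in MSN mice and 1090 to 1196 in ICR mice. Its strains did not overlap, and its log2 fold change was 0.21 (standard error 0.0551, adjusted P-value = 0.0994 from limma). Of 5 relatives of Lhfpl3 in the LHFPL family, 4 were below 0 and 0 passed, with 0 at an unadjusted P-value under 0.05. Their median was -0.04, and the lowest P-value was that of Lhfp (-0.15, adjusted P-value = 0.562 from limma).

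Later stages of the lineage did not pass either. Of 10 genes of premyelinating oligodendrocytes, 6 were above 0 and 0 passed in limma, with 0 at an unadjusted P-value under 0.05 and a median of 0.03 on the log2 scale. The lowest P-value among them was that of Tcf7l2, a transcription factor of Wnt signaling, with a log2 fold change of -0.10 (adjusted P-value = 0.427 from limma). Of 11 measured genes of mature oligodendrocytes, 10 were above 0 and 0 passed in limma, with 3 at an unadjusted P-value under 0.05 and a median log2 fold change of 0.06. Those 3 were Mbp (0.09), Mobp (0.13), both myelin proteins, and Ugt8a (0.14), which makes galactosylceramide. The count above 0 depended on single mice, from 7 of 11 without MSN replicate 6 to 11 of 11 without MSN replicate 4, among others. The summed intensity of the list was 26306 to 30414 in MSN mice and 25512 to 28827 in ICR mice.

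Markers of other cells in the dissected tissue were read beside these. Fibroblasts also express Pdgfra, and of 5 fibroblast markers 1 was above 0, with a summed intensity of 2714 to 4265 in MSN mice and 3001 to 4603 in ICR mice. Pericytes share Cspg4, and of 7 pericyte markers 4 were above 0 (7 with quantile normalization and 7 with scaling to the same median), with a sum of 4797 to 5504 in MSN mice and 4585 to 5441 in ICR mice. The sums of both lists overlapped between the strains. Of 7 astrocyte markers 6 were below 0, with a sum of 28117 to 30736 in MSN mice and 30372 to 32242 in ICR mice, and of 9 measured choroid plexus markers 9 were above 0, with a sum of 9927 to 24646 in MSN mice and 8164 to 24740 in ICR mice. The choroid plexus sum thus ranged widely in both strains. Gfap, the intermediate filament of astrocytes, averaged 1419 ± 65.4 in MSN mice and 1765 ± 263 in ICR mice (SD, n = 6 each), with a log2 fold change of -0.30 (adjusted P-value = 0.101 from limma). Aqp4, their water channel, stood at -0.23 (adjusted P-value = 0.148 from limma), so that both differences were about as large as that of Pdgfra. The glutamate transporter gene Slc1a2 was at -0.11 (adjusted P-value = 0.196 from limma) without overlap between the strains, and Aldh1l1 at 0.19 (adjusted P-value = 0.187 from limma) went the other way. In the other 3 lists the lowest P-values were those of Col1a2, a collagen gene of fibroblasts (-0.11), Rgs5 of pericytes (0.06) and Kcnj13, a potassium channel of the choroid plexus (0.82), with adjusted P-values of 0.406, 0.69 and 0.434 from limma. None of these 4 lists had a gene that passed in limma, and 0, 0, 4 and 0 of their genes had an unadjusted P-value under 0.05. No marker of these lists was below an intensity of 16 on all arrays. Of 8 markers of hippocampal neurons 7 were above 0, 0 passed in limma and 3 had an unadjusted P-value under 0.05, with a mean over the 12 mice of at least 1252 for each marker. Among 7 general neuron, 7 endothelial and 7 microglia markers 2, 5 and 4 were above 0 and 0 passed, with 2, 0 and 1 at an unadjusted P-value under 0.05. Stmn2, a tubulin-binding protein of neurons, came nearest, with 6149 to 6592 in MSN mice and 6719 to 7719 in ICR mice. Its strains did not overlap, and its log2 fold change was -0.17 (adjusted P-value = 0.057 from limma). With untransformed intensities, a pseudocount of 64, trended and robust eBayes, bright clusters only, or without ICR replicate 1, 1 general neuron marker was called lower. The lowest P-values of the hippocampal neuron, endothelial and microglia lists were those of Neurod6, a neuronal transcription factor (0.15), Flt1, a VEGF receptor (0.13), and Trem2, a microglial receptor (-0.18), with adjusted P-values of 0.285, 0.448 and 0.349 from limma. The part of these cells in the difference of Pdgfra was not tested.

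**Figure D4:**
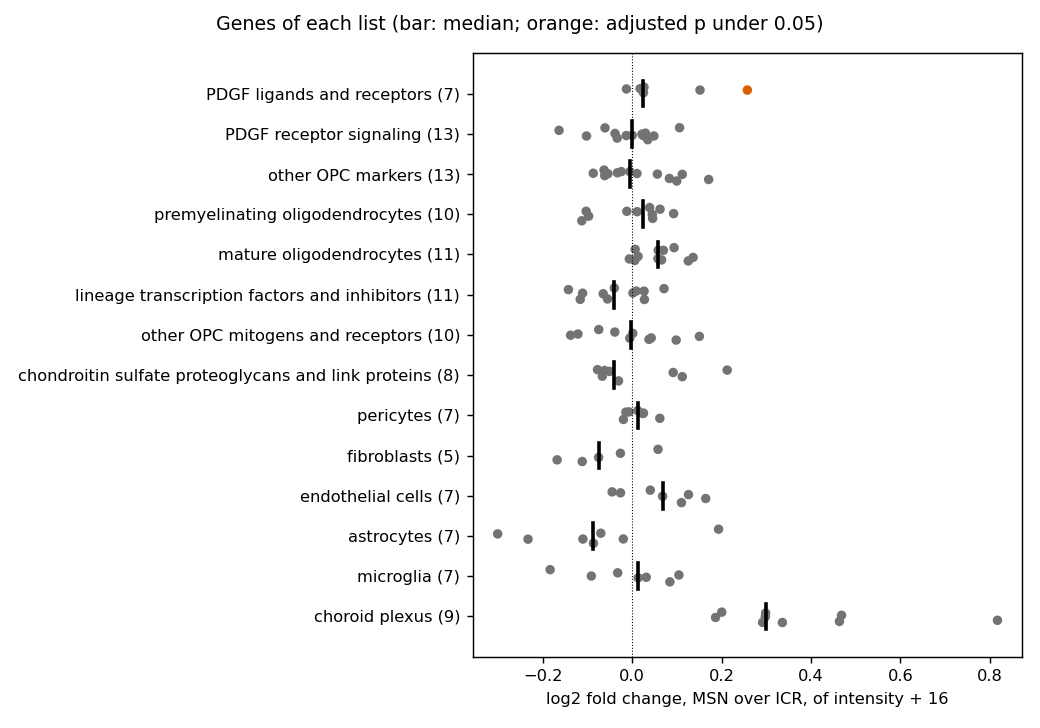
Log2 fold change of MSN over ICR for the genes of each list shown, with 1 point per gene, the number of genes measured in parentheses and the median as a black bar. The LHFPL family and the general and hippocampal neuron lists are not shown. Pdgfra is the orange point, the one gene shown with an adjusted P-value under 0.05, and choroid plexus is the list farthest from 0.

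Pdgfra lies on chromosome 5, as do Pdgfa and Lhfpl3, with 620 and 313 other measured genes between Pdgfra and each of them. Of the 5 measured genes on either side of Pdgfra, 0 of 10 passed in limma, 1 had an unadjusted P-value under 0.05, all 10 overlapped between strains and 5 were above 0. Its direct neighbors were Gsx2, a homeobox gene, at a log2 fold change of 0.09, and Kit, a receptor tyrosine kinase of the same family, at -0.01. Kdr, the VEGF receptor beyond Kit, had 0.11 (adjusted P-value = 0.556 from limma). The lowest was Srd5a3, an enzyme of dolichol synthesis, with 845 ± 55.0 in MSN mice and 1001 ± 94.3 in ICR mice (SD, n = 6 each), and the log2 fold change was -0.24 (adjusted P-value = 0.0975 from limma). The rest of the neighborhood, Fip1l1, Lnx1, Gm6116, Chic2, Tmem165 and Clock, lay between -0.07 and 0.03.

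**Figure D5:**
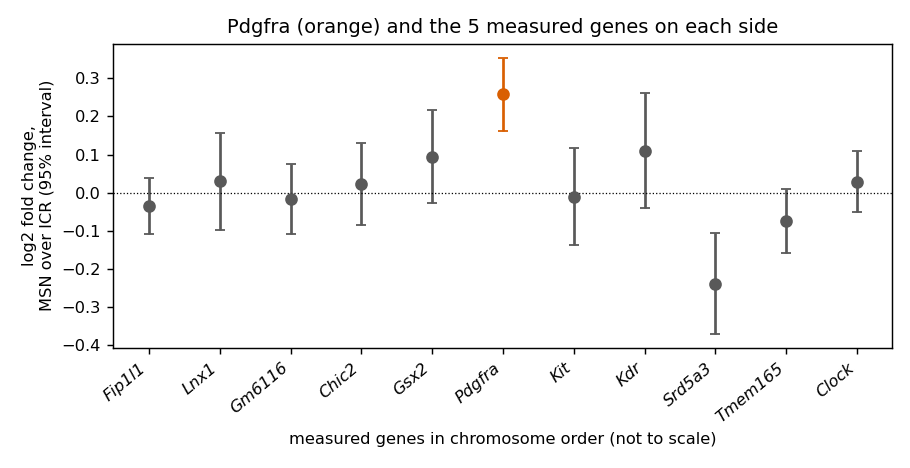
Log2 fold change of MSN over ICR with its 95% interval for Pdgfra, in orange, and the 5 measured genes on each side in chromosome order, not to scale. Pdgfra is the one gene whose strains do not overlap, and Srd5a3 is the lowest at -0.24.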

How the data were processed

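Labeled cDNA made from the hippocampal RNA of 12 mice was hybridized to 12 arrays. The median intensity over clusters with a gene was 373 to 389 per array. Correlations between arrays were 0.992 to 0.997 on the log2 scale. The deposited values are linear intensities, which the authors computed with PLIER and GC-bin background correction in Affymetrix Power Tools 1.12.0. They were tested as log2(intensity + 16) by limma 3.58.1 (R 4.3.3), with strain as the only term and default eBayes settings. The fit was tested on arrays simulated from the observed means and SDs. There, 66% of added changes of 0.25 on the log2 scale were called, and 90% of those of 0.5. A gene that did not pass can thus still differ by such an amount. Each array came from its own mouse, and precision is limited by there being 6 per strain. The genes and the lists were chosen with earlier results of these data known. Named are the 9 genes, the called gene and 1 to 3 genes of the lowest P-values from each list, Slc1a2 (chosen after its values were seen), all measured genes of the PDGF family, the 5 neighbors on each side of Pdgfra and the 5 genes most like it. For a gene with several clusters, the one with the highest mean stood for it. Correlations between genes used 100000 permutations. Gene order was read from RefSeq (GRCm38.p6), by the gene that a cluster is annotated to. The scan batches are not given in the sources used here.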

Additional observations from a re-analysis of the deposited data

How the results depend on the processing

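Pdgfra kept its direction and its call in 10 other settings (array weights, trended and robust eBayes, quantile normalization, arrays scaled to 1 median, pseudocounts of 1 and 64, untransformed intensities, bright clusters only, every cluster, and 1 cluster per gene), with adjusted P-values of 0.00636 to 0.0324 from limma. Without each mouse in turn its log2 fold change was 0.23 to 0.27, with adjusted P-values of 0.0226 to 0.048. The sources used here do not describe the replicate numbers as pairing mice across the strains. Same-numbered mice deviated together with r from -0.126 to 0.125 over all clusters. Such values cannot show whether same-numbered mice shared a processing step that affected some genes. With the replicate block, Pdgfra was at 0.26 with an adjusted P-value of 0.0652, 0 of the 9 genes were called and 42 clusters were called in all. The number of the 9 genes called was 1 in every other setting, and 7 or 8 were above 0, where the 7 under bright clusters reflects Cspg4 left out by that filter. The other 8 genes were not called in any setting. Olig2 reversed, to -0.00118 on the log2 scale, without MSN replicate 1, and over the left-out mice ran from -0.00118 to 0.066. On the same scale Pdgfa ran from 0.01 to 0.05, Sox10 from 0.03 to 0.06, Cspg4 from 0.05 to 0.10 and Gpr17 from 0.03 to 0.15. Over all clusters 279 were called with a pseudocount of 64 and 315 with array weights, and 91 to 210 without single mice (91 without MSN replicate 4, 93 without ICR replicate 6, 103 without MSN replicate 3 and 118 without ICR replicate 5); the cause was not tested. The split of higher and lower calls was 71 and 111, but 131 and 109 with quantile normalization and 115 and 89 with scaling to the same median. That the strains did not overlap in 1 of the 9 genes held with both scalings and without single mice, which was added after seeing the data. For Pdgfra, leaving out a mouse could not have changed this. Other pseudocounts and untransformed intensities keep the order of the mice, so they could not have changed it in any gene. No pair of genes was correlated at an adjusted P-value under 0.05 in the 5 scale settings.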
